A study of Mus musculus with 8 samples.

Results

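The genes described here encode proteins of the spliceosome and of 2 families of RNA-binding proteins that guide it, the SR and hnRNP proteins. Of 52 listed genes, 46 were measured by a transcript cluster (a probe set for 1 transcript region) annotated to that gene alone, among 30700 genes tested in all. They comprise 5 of 7 Sm core genes, 11 of 12 genes for proteins of single snRNPs and the Prp19 complex, all 10 SF3 and U2AF genes, 9 of 10 SR genes and 11 of 13 hnRNP genes. Snrpd1, Snrpd2, Snrpa, Hnrnpa1 and Hnrnpr share their clusters with other genes, and Srsf7 was not matched in the annotation, so these 6 were left out. Of several clusters for a gene, the brightest on average over the 8 arrays stood for it.

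RNA came from pools of 100 mouse embryos of B6C3F1 x CD1 matings, with 2 pools in each of 4 groups. Zygotes were injected at the pronuclear stage with Trim21 mRNA and an anti-COPS3 antibody (combined injection), with anti-COPS3 antibody alone, or with Trim21 mRNA alone, and non-manipulated zygotes stayed in the incubator. TRIM21 recognises the constant part of antibodies and, as a ubiquitin ligase, sends an antibody and the protein it holds to the proteasome. COPS3 belongs to the COP9 signalosome, a complex that takes NEDD8 off cullin ubiquitin ligases. Culture lasted 28 h after injection by the protocol, against an age label of 24 h in vitro. The labels describe stunted cleavage with many undivided zygotes in both antibody groups and normal 2-cell formation in the other 2 groups. No group received a control antibody. Both pools of a group were treated on the same day and each group on its own day, so day and treatment cannot be told apart and every p below measures the spread between pools of 1 day. In whole-embryo RNA, fewer cells and less RNA per cell cannot be told apart either.

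Splicing removes introns from pre-mRNA. Small nuclear RNAs in rings of Sm proteins form the U1, U2, U4/U6 and U5 snRNPs; U1 recognises the 5′ splice site, U2 with SF3 and U2AF the branch point and 3′ splice site, and the U4/U6.U5 proteins arrange the catalytic centre. SR proteins mostly promote, and hnRNP proteins often repress, the use of particular exons. The late 2-cell embryo is the stage at which the mouse genome becomes strongly transcribed while many maternal transcripts are lost.

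The labels could be checked on Trim21, whose log2 level was 10.40 and 10.30 after combined injection, 6.76 and 6.37 with antibody alone, 9.77 and 10.14 with Trim21 mRNA and 6.27 and 5.65 in non-manipulated embryos. Cops3 mRNA, which does not show the protein, stood at 9.06 and 9.40 after combined injection, 8.85 and 8.86 with antibody alone, 10.00 and 9.97 with Trim21 mRNA and 9.50 and 9.52 in non-manipulated embryos. The arrays did not share a distribution: the median log2 level was 5.15 and 5.29 after combined injection, 5.24 and 4.86 with antibody alone, 4.87 and 4.90 with Trim21 mRNA and 4.75 and 4.77 in non-manipulated embryos. The range was narrower in some: the standard deviation over clusters was 2.38 and 2.27, 2.45 and 2.60, 2.66 and 2.66, and 2.71 and 2.71 in the same order. Clusters at the highest value of their array numbered 169 and 151 after combined injection and 136 in antibody-alone pool 1. Every other array had 1, and no splicing gene was among them. The part of this narrower range in the lower splicing genes was not tested. Over all genes the median change came to 0.21 for combined injection against Trim21 mRNA. Genes with a mean log2 level of at least 8, which include 38 of the 46 splicing genes, had a median change of -0.735 in that comparison, so this class is given beside the counts over all 46 genes. The 2 antibody-alone pools differed most, with 13 of the 46 splicing genes and 15% of all genes more than 2-fold apart. In each of the other 3 groups 0 splicing genes were that far apart. Of all genes, 2.64% were so after combined injection, 0.316% with Trim21 mRNA and 0.16% in non-manipulated embryos.

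Promoter windows of 300 bases (250 before to 50 after the start of the gene, RefSeq, GRCm38.p6) were available for 42 of the 46 genes. They are shown because these genes fell together. The 5 printed are those of Srsf6 and Hnrnpm, which fell most, of Sf3a1 and Snrpe, which also fell, and of Sf3b3, which was not called. Capitals mark matches, on either strand, to the 6 motifs spelled out after the windows; the ETS core and its reverse complement can overlap, as they do near the start of Snrpe. Each is on the strand of the gene, 5′ to 3′.
Srsf6 (chr2:162931258-162931557, plus strand): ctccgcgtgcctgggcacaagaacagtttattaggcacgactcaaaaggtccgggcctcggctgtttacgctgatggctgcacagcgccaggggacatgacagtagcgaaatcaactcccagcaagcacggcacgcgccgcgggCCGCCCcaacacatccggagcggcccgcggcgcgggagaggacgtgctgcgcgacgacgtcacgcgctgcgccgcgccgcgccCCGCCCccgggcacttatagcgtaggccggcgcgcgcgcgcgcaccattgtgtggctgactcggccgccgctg
Hnrnpm (chr17:33685409-33685708, minus strand): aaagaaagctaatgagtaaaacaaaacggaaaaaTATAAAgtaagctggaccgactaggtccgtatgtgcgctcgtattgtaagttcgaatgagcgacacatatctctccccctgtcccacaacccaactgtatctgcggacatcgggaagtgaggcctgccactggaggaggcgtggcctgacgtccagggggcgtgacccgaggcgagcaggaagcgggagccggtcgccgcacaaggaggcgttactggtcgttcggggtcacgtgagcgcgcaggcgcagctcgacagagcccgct
Sf3a1 (chr11:4160104-4160403, plus strand): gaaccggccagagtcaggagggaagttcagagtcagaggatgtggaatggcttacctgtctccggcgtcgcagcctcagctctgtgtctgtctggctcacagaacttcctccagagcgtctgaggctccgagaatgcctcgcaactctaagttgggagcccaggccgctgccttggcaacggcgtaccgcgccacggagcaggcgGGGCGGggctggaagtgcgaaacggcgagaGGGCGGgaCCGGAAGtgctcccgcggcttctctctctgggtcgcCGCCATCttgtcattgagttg
Snrpe (chr1:133610231-133610530, minus strand): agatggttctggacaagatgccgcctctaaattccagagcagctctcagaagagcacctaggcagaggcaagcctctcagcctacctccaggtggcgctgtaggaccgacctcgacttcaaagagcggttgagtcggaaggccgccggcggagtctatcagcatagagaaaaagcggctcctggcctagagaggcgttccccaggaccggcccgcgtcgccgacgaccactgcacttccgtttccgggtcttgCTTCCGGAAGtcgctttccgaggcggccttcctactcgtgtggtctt
Sf3b3 (chr8:110846754-110847053, minus strand): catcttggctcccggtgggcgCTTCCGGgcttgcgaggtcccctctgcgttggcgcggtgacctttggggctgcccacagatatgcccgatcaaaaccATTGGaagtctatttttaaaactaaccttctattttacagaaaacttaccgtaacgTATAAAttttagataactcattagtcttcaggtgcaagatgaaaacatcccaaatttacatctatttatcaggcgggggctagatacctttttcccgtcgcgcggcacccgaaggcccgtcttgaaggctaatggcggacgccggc

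The core bound by ETS factors, CCGGAAG, stood in 17 of the 42 windows (40.5%), against 21.7% of windows of genes with a mean log2 level of at least 8 and 9.12% of all windows in the table. It was present in 11 of the 32 windows of genes called lower after combined injection against Trim21 mRNA and in 6 of the 10 windows of genes not called. The core bound by SP1, GGGCGG, was in 57.1% of the splicing windows, against 64.9% in genes of that level and 35.9% of all. The YY1 core, GATGGCG, was in 11.9% of the splicing windows, against 7.87% and 3.66% in the same classes. The NRF1 core, GCATGCG, was in 4.76%, against 7.5% and 3.64%. The TATA box, TATAAA, was in 11.9%, against 7.2% and 14.2%. The NF-Y core, CCAAT, was in 47.6%, against 41.6% and 37.9%. The median GC content was 59.0% in the splicing windows, against 61.0% in genes of that level and 52.7% in all. These are letters in a window, and binding was not measured.

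The comparison of combined injection with Trim21 mRNA asks what the antibody adds when TRIM21 is present. Splicing genes of all 5 groups were lower in it: 34 of 46 (73.9%) were called lower and 0 higher at an adjusted p under 0.05 (limma, Benjamini-Hochberg over all 30700 genes). Of all genes 14.5% were called lower, and 44.4% of genes with a mean log2 level of at least 8. Of the 38 splicing genes in that class, 30 (78.9%) were called lower. The median change of the 46 was -1.48 on the log2 scale, against -0.735 in that class; it was -0.806 after quantile normalization and -0.88 after cyclic loess. In 43 of 46 both combined-injection pools lay below both Trim21 mRNA pools, against 26.5% of all genes and 60% of genes with a mean log2 level of at least 8. Without Trim21 mRNA replicate 1 fewer were called, and the median was -1.428. In a fit of these 2 groups alone 41 were called lower, against 18.3% of all genes. Sf3b3, Snrpb2, Snrpf, Srsf4 and U2af2 were not called in it. After quantile normalization 23 were called lower and 1 higher, against 3787 and 3210 of all 30700 genes. After cyclic loess 25 were called lower and 1 higher, against 3804 and 2890. Of the 34 genes, 19 were called in every other setting run. Hnrnpa3 is among them with 19 settings, as it was not in the fit of clusters on the gene's own chromosome. Of 20 other settings, Sf3a2 and Hnrnpk were called in 10 each, Snrpg in 11, Snrpd3 in 12, Srsf9 in 13, Hnrnpc in 14, Snrpe in 15, Sf3b2, Snrpc, Srsf2 and Srsf10 in 16, Prpf4, Snrnp200 and Hnrnpf in 18 and Hnrnpl in 19.

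**Figure D1:**
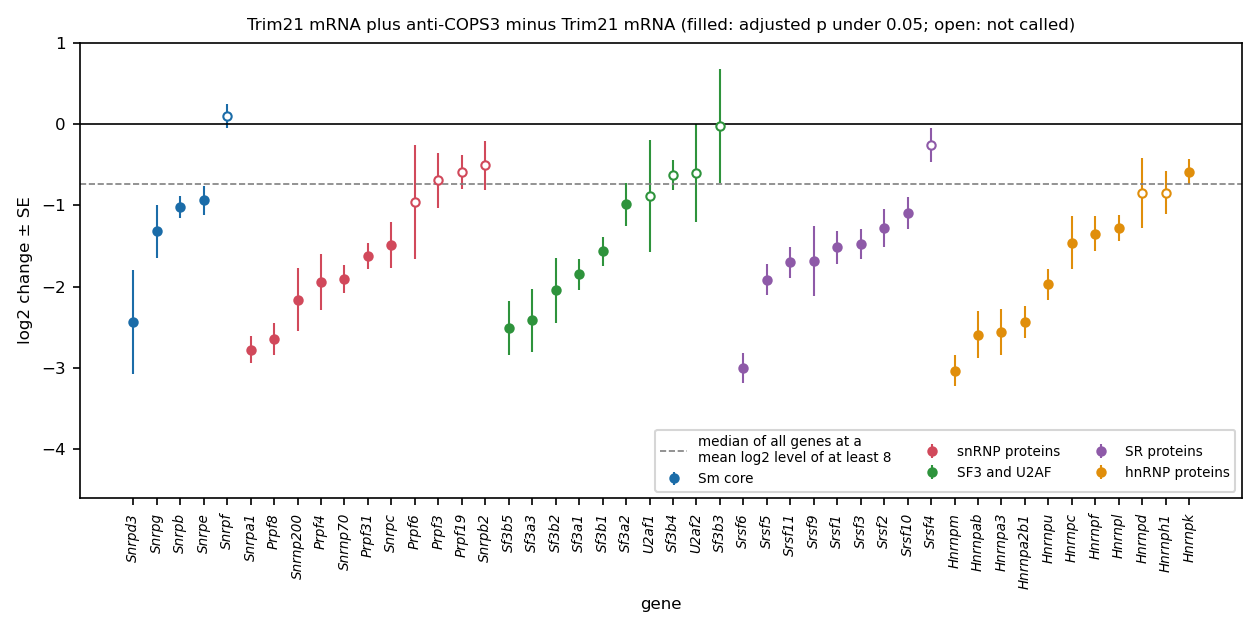
Log2 change (y axis) with its standard error for each of the 46 splicing genes (x axis), combined injection minus Trim21 mRNA, coloured by group. Filled points are called and the dashed line is the median of genes with a mean log2 level of at least 8, at -0.735; Hnrnpm and Srsf6 lie lowest and Snrpf is the 1 gene above 0.

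Sm proteins form the ring that is built on each spliceosomal RNA. In this group 4 of 5 genes were called lower, with a median change of -1.02. Snrpb, which encodes SmB, stood at 5.65 and 5.72 after combined injection, against 6.72 and 6.69 with Trim21 mRNA, a change of -1.02 ± 0.14 (SE, n = 2 pools each; limma adjusted p = 0.00234). Snrpe, the SmE gene, stood at 9.83 and 9.48 after combined injection, against 10.62 and 10.57 with Trim21 mRNA (-0.94 ± 0.18; limma adjusted p = 0.00947). Neither set of pools overlaps the other in these genes. Snrpe was not called without Trim21 mRNA replicate 1 (adjusted p = 0.0817) or replicate 2 (0.0687), nor after quantile normalization (-0.22, 0.313) or cyclic loess (-0.31, 0.133). Snrpf, the SmF gene, had 7.62 and 7.48 after combined injection and 7.42 and 7.49 with Trim21 mRNA, so the pools overlap; its change was 0.10 (95% interval -0.26 to 0.45), but 0.45 after quantile normalization and 0.47 after cyclic loess, both called higher. Snrpd3 and Snrpg, for SmD3 and SmG, changed by -2.44 and -1.32, both called. The identifier of the Snrpg cluster names chromosome 17 while RefSeq puts the gene on 6, and the cluster on chromosome 6 gave -0.44 (adjusted p = 0.149).

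The snRNP proteins give each particle its identity. Here 7 of 11 genes were called lower and the median change was -1.62. Snrpa1, a U2 protein, stood at 9.09 and 9.21 after combined injection, against 12.05 and 11.80 with Trim21 mRNA (-2.77 ± 0.17; limma adjusted p = 0.000102). Prpf8, the U5 protein at the heart of the catalytic centre, stood at 9.45 and 9.24, against 12.08 and 11.90 (-2.65 ± 0.20; limma adjusted p = 0.000192). The combined-injection pools lay more than 2 log2 units below those with Trim21 mRNA for both. Both U1 genes measured also fell, Snrnp70 (-1.91) and Snrpc (-1.49), as did the U5 helicase gene Snrnp200 (-2.16) and the U4/U6 genes Prpf4 (-1.95) and Prpf31 (-1.62). Prpf3 (-0.70), Prpf19 (-0.60), Snrpb2 (-0.51) and Prpf6 were not called. Prpf6, a U5 protein, had 7.99 and 7.91 after combined injection and 8.97 and 8.84 with Trim21 mRNA, which do not overlap; its large standard error of 0.70 comes from antibody-alone pools at 5.85 and 8.38, and it was called in the fit of 2 groups alone (adjusted p = 0.0054).

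SF3A and SF3B are the parts of U2 that hold the branch point, and U2AF recognises the 3′ splice site. In this group 6 of 10 genes were called lower, with a median of -1.28: all 3 SF3A genes and 3 of 5 SF3B genes, but neither U2AF gene. Sf3a1 stood at 9.31 and 8.96 after combined injection, against 10.99 and 10.98 with Trim21 mRNA (-1.85 ± 0.19; limma adjusted p = 0.000657). Sf3b1, which encodes the largest SF3B protein, stood at 10.98 and 10.67, against 12.48 and 12.30 (-1.57 ± 0.18; limma adjusted p = 0.00101). Sf3b5 had 5.90 and 6.12 after combined injection and 8.61 and 8.43 with Trim21 mRNA, a change of -2.51. All 3 genes had pools that do not overlap. Sf3a3 (-2.42), Sf3b2 (-2.05) and Sf3a2 (-0.99) were the others called. Sf3a2 was not called when any 1 array outside the antibody-alone group was left out (-1.12 to -0.86), nor after quantile normalization (-0.64) or loess (-0.65). Sf3b2 was not called after quantile normalization (-1.28), without Trim21 mRNA replicate 1 (-2.12) or 2 (-1.97), or without combined-injection replicate 2 (-1.92). Sf3b3 had 9.28 and 8.77 after combined injection and 9.13 and 8.97 with Trim21 mRNA, which overlap, with a change of -0.03 whose 95% interval runs from -1.69 to 1.64. U2af1 (-0.89) and U2af2 (-0.61), for the small and large U2AF subunits, were not called. For both, the 2 combined-injection pools lay below the 2 Trim21 mRNA pools. Their 95% intervals are wide, from -2.52 to 0.75 and from -2.03 to 0.82. U2af1 was called lower in the fit of these 2 groups alone.

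SR proteins bind exons and recruit U1 and U2AF. Of the 9 genes 8 were called lower, with a median of -1.52. Srsf6 stood at 7.68 and 7.66 after combined injection, against 10.82 and 10.52 with Trim21 mRNA, 8-fold lower (-3.0 ± 0.18; limma adjusted p = 0.000103). Srsf5 stood at 7.48 and 7.34, against 9.47 and 9.18 (-1.92 ± 0.19; limma adjusted p = 0.000616). Srsf11, Srsf9, Srsf1, Srsf3, Srsf2 and Srsf10 changed by -1.70, -1.69, -1.52, -1.48, -1.28 and -1.10. Srsf2 was not called without Trim21 mRNA replicate 1 (adjusted p = 0.0768) or combined-injection replicate 2 (0.0534), nor after quantile normalization (-0.54) or loess (-0.62). Srsf4, with 8.13 and 7.60 after combined injection and 8.17 and 8.07 with Trim21 mRNA, overlapped and was not called (-0.26, 95% interval -0.75 to 0.24).

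hnRNP proteins coat nascent transcripts. Of the 11 genes 9 were called lower, with a median of -1.46. Hnrnpm had the largest change of the 46, at 6.69 and 6.72 after combined injection, against 9.83 and 9.64 with Trim21 mRNA, 8.17-fold lower (-3.03 ± 0.19; limma adjusted p = 0.000104). Hnrnpa2b1 stood at 10.41 and 9.91, against 12.69 and 12.50 (-2.44 ± 0.20; limma adjusted p = 0.000272). These pools were far apart in both genes. Hnrnpab, Hnrnpa3, Hnrnpu, Hnrnpc, Hnrnpf and Hnrnpl changed by -2.59, -2.56, -1.97, -1.46, -1.35 and -1.28. The identifier of the Hnrnpa3 cluster names chromosome 3 while RefSeq puts the gene on 2. No cluster on chromosome 2 was annotated to Hnrnpa3 alone, and whether the value used is that of the gene was not tested. Hnrnpk changed by -0.59 and was called, but was 0.29 after quantile normalization and 0.14 after cyclic loess, with neither called. Hnrnpd, with 9.76 and 9.26 after combined injection and 10.38 and 10.33 with Trim21 mRNA, did not overlap yet was not called (-0.85, 95% interval -1.87 to 0.18), and Hnrnph1 (-0.85) was not called.

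**Figure D2:**
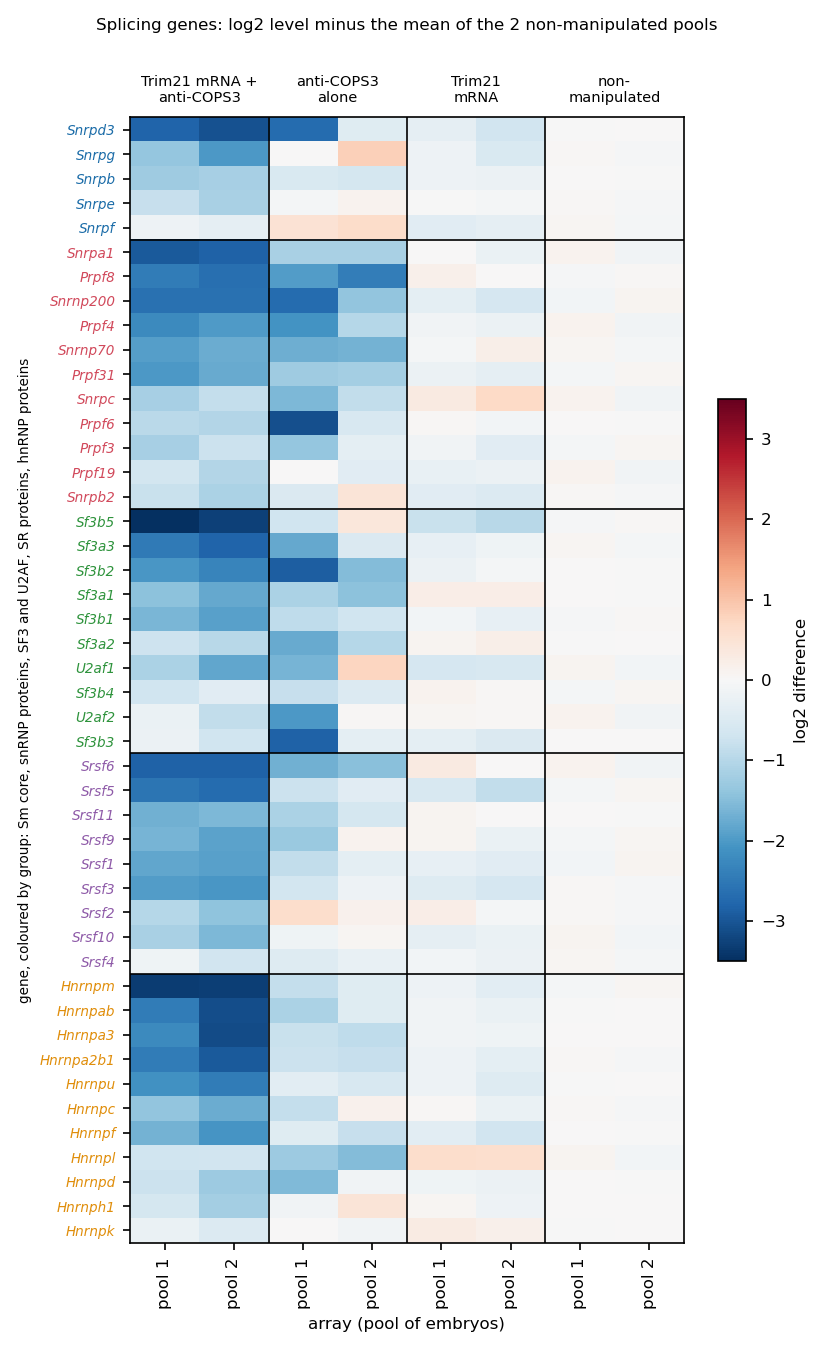
Log2 level of each splicing gene (rows, by group) on each array (columns), minus the mean of the 2 non-manipulated pools; blue is lower and red higher. The 2 combined-injection columns are the most evenly blue, and antibody-alone pool 1 is bluer than pool 2 for genes such as Prpf6 and Sf3b3.

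Genes that work with these proteins were counted in lists drawn up beside the members. Of 120 such genes, 78 (65%) were called lower and 2 higher after combined injection against Trim21 mRNA, with a median of -1.25. In the counts of this paragraph, genes that fell or rose are those called lower or higher. Of all genes 14.5% were called lower, and 44.4% of genes with a mean log2 level of at least 8, whose median was -0.735. In the SMN complex and methylosome, which load the Sm ring, 11 of 13 fell (median -2.05), among them Snupn (-2.83), which brings snRNPs to the nucleus, and Clns1a (-2.29). In the U12 spliceosome, which removes a rare class of introns, 7 of 9 fell (median -2.32), among them Snrnp48 (-2.95) and Armc7 (-2.32). Among helicases, Prp19 complex and step factors 19 of 27 fell, including the second-step factor Slu7 (-3.37) and the helicase Ddx41 (-2.19). Among SR kinases and partners 13 of 18 fell, including Tnpo3 (-3.67), the importer of SR proteins, and the kinase Clk1 (-1.82). Of the other snRNP proteins 13 of 20 fell, including Sf3b6 (-2.61) and the kinase Prpf4b (-2.05), and 4 of 6 exon junction genes, including Rbm8a (-3.23) and Upf1 (-1.91). Of 27 other hnRNP and RNA-binding genes 11 (40.7%) fell and 2 rose (median -0.58), a share near that of genes with a mean log2 level of at least 8. Tardbp (-2.42) and Nono (-1.27) fell, while the polypyrimidine-tract binding genes Ptbp3 and Ptbp2 rose by 1.41 and 1.06. Nono was not called after quantile normalization (-0.40) or loess (-0.55), and Ptbp2 not after median centring (0.73), or without Trim21 mRNA replicate 1 (1.05) or replicate 2 (1.08); Ptbp3 was not called without Trim21 mRNA replicate 2 (1.32).

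Some markers of stage and of other cells moved in the same comparison. Of all genes 8.72% were called higher and 14.5% lower in it. Of genes with a mean log2 level of at least 8 these shares were 11.6% and 44.4%. Of 10 markers of the 2-cell embryo 7 were called higher and 2 lower, and their mean log2 level was 11.87 and 12.02 after combined injection, against 10.9 and 11.1 with Trim21 mRNA. Of 13 oocyte and zygote markers 5 were called higher and 1 lower, with means of 12.9 and 12.6, against 12.13 and 12.003. Of 9 cumulus and granulosa markers 1 was higher and 1 lower (Amhr2, -3.33), with means of 5.37 and 5.55, against 5.73 and 5.67; of 5 oviduct markers 1 was lower (Epcam, -2.34), with means of 7.12 and 7.16, against 7.53 and 7.46. Of 4 blood and immune markers 0 were called, with means of 4.83 and 5.13, against 4.83 and 4.803. With antibody alone the markers of the 2-cell embryo averaged 10.83 and 11.61, against 11.04 and 10.87 in non-manipulated embryos. The part of these differences, and of the stunted cleavage, in the lower splicing genes was not tested.

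The comparison of combined injection with non-manipulated embryos shares the treated pools with the one above. In it 35 of 46 splicing genes were called lower and 0 higher, with a median of -1.66, against 16.6% of all genes called lower and 48.8% of genes with a mean log2 level of at least 8, whose median was -0.875. Both treated pools lay below both non-manipulated pools in 46 of 46 genes, against 28.8% of all genes and 65.6% of that class. Sf3b5 had the largest change, -3.38, with 5.90 and 6.12 after combined injection and 9.35 and 9.43 in non-manipulated embryos. Hnrnpm followed at -3.32, Snrpd3 at -2.93 and Snrpa1 at -2.89. By group, 4 of 5 Sm, 8 of 11 snRNP, 6 of 10 SF3 and U2AF, 8 of 9 SR and 9 of 11 hnRNP genes were called lower. Hnrnpl (-0.68) was 0.035 after quantile normalization. Hnrnpk, at -0.355 and not called in the main fit, was 0.604 after it and called higher (limma adjusted p = 0.0228). In that setting 26 splicing genes were called lower and 1 higher, against 4247 and 3379 of all genes. Without non-manipulated replicate 1 the median was -1.632, and without replicate 2 it was -1.678. Each of these fits called fewer genes than the main fit, among the splicing genes and over all genes.

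Trim21 mRNA against non-manipulated embryos asks what the injected mRNA does alone. No splicing gene was called by limma at the threshold (0 of 46, smallest adjusted p 0.569; 4 had an unadjusted p under 0.05, 3 lower and 1 higher), against 0.00326% of all genes. The median was -0.18. Hnrnpl had the largest rise in level, 11.09 and 11.08 with Trim21 mRNA against 10.58 and 10.39 in non-manipulated embryos, a difference of 0.60 that was not called. Sf3b5 had the largest fall in level, 8.61 and 8.43 against 9.35 and 9.43, a difference of -0.87 that was not called either. With array weights 7 splicing genes were called, 6 lower and 1 higher, against 12.2% of all genes. In a fit of these 2 groups alone 6 were called, against 8.21% of all genes.

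Antibody alone against non-manipulated embryos asks what the antibody does without added TRIM21. Fewer splicing genes passed the test here: 15 of 46 were called lower and 0 higher, with a median of -0.77, against 7.29% of all genes and 21.4% of genes with a mean log2 level of at least 8, whose median was -0.35. The calls were unevenly spread, with 7 of 11 snRNP, 4 of 10 SF3 and U2AF, 2 of 9 SR, 1 of 11 hnRNP and 1 of 5 Sm genes; whether these shares differ between groups was not tested. Prpf8 stood at 9.93 and 9.47 with antibody alone, against 11.86 and 11.92 in non-manipulated embryos (-2.19 ± 0.20; limma adjusted p = 0.00302). Snrnp70 stood at 9.14 and 9.19, against 10.91 and 10.79 (-1.69 ± 0.17; limma adjusted p = 0.00374). These pools do not overlap. Srsf6, at 8.82 and 9.03 against 10.63 and 10.37, fell by 1.58, and Hnrnpl, at 9.20 and 8.98 against 10.58 and 10.39, fell by 1.40 and was the 1 hnRNP gene called. Other called genes included Sf3b2 (-2.20), Snrnp200 (-2.04), Sf3a2 (-1.39) and Sf3a1 (-1.26). No splicing gene was called without non-manipulated replicate 1 or replicate 2, or in a fit of these 2 groups alone. Fewer than in the main fit were called without either Trim21 mRNA replicate. Snrpf, at 0.58 and not called, was called higher by limma after quantile normalization (0.752, adjusted p = 0.02) and cyclic loess (0.817, 0.0133). It was also called higher with a minimum mean level of 6 (adjusted p = 0.0498). Those 3 settings called 10, 11 and 16 splicing genes lower, against 4.55%, 5.61% and 20.2% of the genes tested in them. Snrpf was at 0.645 without antibody-alone replicate 1 and 0.515 without replicate 2. The 2 antibody-alone pools lay apart, and the median was -0.43 without replicate 1 and -0.997 without replicate 2.

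The genes given per pool above differed in how far antibody alone moved them. In the snRNP and SF3 groups, Snrpa1 stood at 10.91 and 10.91 with antibody alone, against 12.15 and 11.92 in non-manipulated embryos. Sf3a1 stood at 9.66 and 9.33, against 10.78 and 10.73. Sf3b1 stood at 11.68 and 11.87, against 12.54 and 12.62. All 3 were called lower and their pools do not overlap, nor do those of Snrpb, at 6.35 and 6.27 against 6.90 and 6.89, also called. In the Sm and SR groups, Snrpe stood at 10.55 and 10.76, against 10.66 and 10.59, and the pools overlap. Srsf2 stood at 11.61 and 11.13, against 11.04 and 10.94, and was not called (adjusted p = 0.305), although both antibody pools lay above both non-manipulated pools. Srsf5 stood at 9.28 and 9.63, against 9.96 and 10.12, and was not called (adjusted p = 0.109). Among hnRNP genes, Hnrnpm stood at 9.18 and 9.59 with antibody alone, against 9.95 and 10.09. Hnrnpa2b1 stood at 12.11 and 12.06, against 12.90 and 12.81. Hnrnpu stood at 9.82 and 9.63, against 10.19 and 10.21. The antibody pools of these 3 hnRNP genes were lower without overlap but none passed the test (adjusted p = 0.082, 0.0586 and 0.162).

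**Figure D3:**
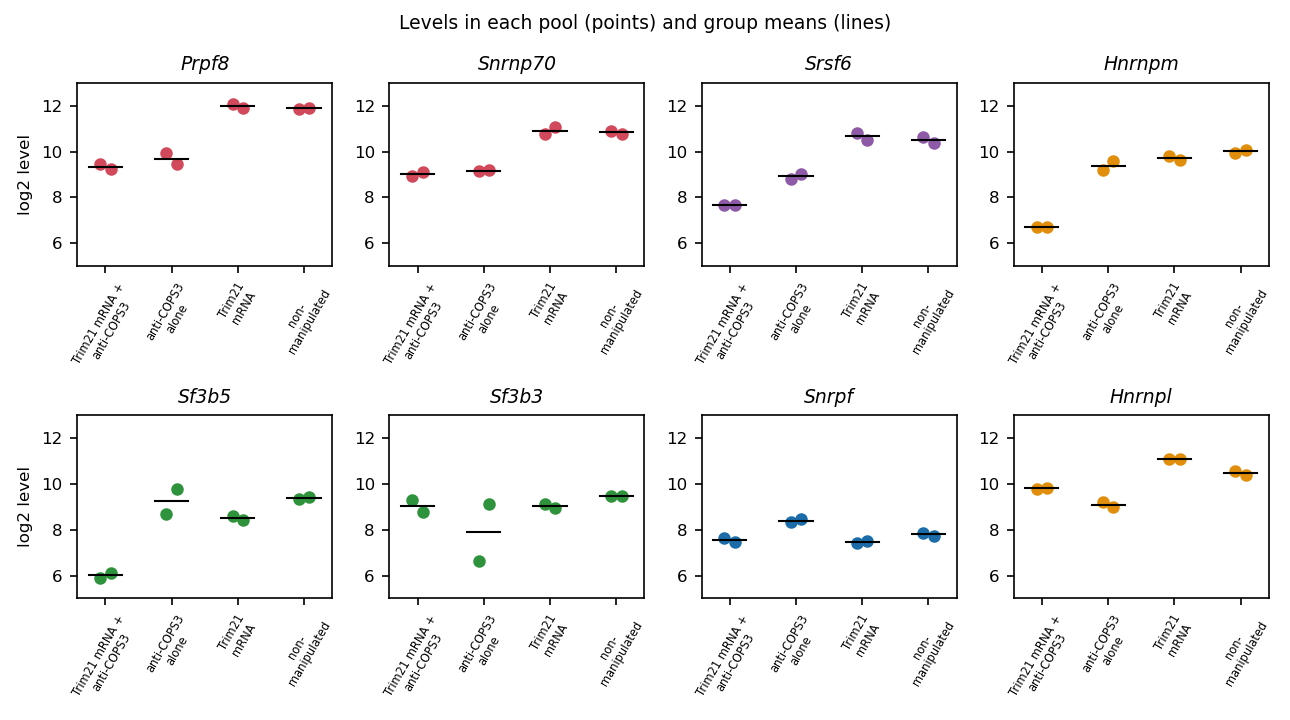
Log2 level of 8 splicing genes in each pool (points) of the 4 groups (x axis), with group means (lines). Prpf8 and Snrnp70 are low in both antibody groups, Srsf6, Hnrnpm and Sf3b5 are lowest after combined injection, and the 2 antibody-alone pools of Sf3b3 lie at 6.65 and 9.13.

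Combined injection against antibody alone asks what added Trim21 mRNA does when the antibody is present. Here 23 of 46 splicing genes were called lower and 1 higher, with a median of -0.94, against 10.5% of all genes called lower, 4.37% called higher, 14.9% called either way and 35.5% of genes with a mean log2 level of at least 8 called lower, whose median was -0.55. The lower calls were 4 of 5 Sm, 2 of 11 snRNP, 3 of 10 SF3 and U2AF, 7 of 9 SR and 7 of 11 hnRNP genes. Sf3b5 stood at 5.90 and 6.12 after combined injection, against 8.70 and 9.78 with antibody alone (-3.23 ± 0.33; limma adjusted p = 0.00136). Hnrnpm stood at 6.69 and 6.72, against 9.18 and 9.59 (-2.68 ± 0.19; limma adjusted p = 0.000414). The groups do not overlap for either gene. Hnrnpl, the 1 gene called higher, stood at 9.79 and 9.82 after combined injection, against 9.20 and 8.98 with antibody alone (0.71; adjusted p = 0.0251); it was not called after median centring (0.55, adjusted p = 0.0596) or in any fit that left out 1 non-manipulated, Trim21 mRNA or combined-injection array (adjusted p 0.0667 to 0.106). Prpf8 (-0.35, 95% interval -0.83 to 0.12), Snrnp70 (-0.14, -0.54 to 0.25) and Sf3b2 (0.02, -0.93 to 0.97) were not called here. Without antibody-alone replicate 2, which leaves 1 array in that group, the median of the 46 was -0.653, against -0.03 over all genes. Values above 0 in that fit included Sf3b3 (2.38), Prpf6 (2.10), U2af2 (1.47), Sf3a2 (0.93), Sf3b2 (0.70) and Hnrnpl (0.61). Without combined-injection replicate 2 fewer were called lower, and the median was -0.782. In a fit of these 2 groups alone 7 were called lower, against 3.83% of all genes.

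The interaction, the antibody effect with Trim21 mRNA minus that without it, tests directly whether the drop was larger when TRIM21 was added. Of 46 splicing genes 8 had a significantly more negative antibody effect with Trim21 mRNA and 0 a less negative one, against 3.46% of all genes with a lower value, 4.08% called either way and 14.1% of genes with a mean log2 level of at least 8 called lower. The 8 were Hnrnpm, Hnrnpa2b1 and Hnrnpu, the SR genes Srsf2, Srsf5 and Srsf6, the U2 gene Snrpa1 and the SF3B gene Sf3b5. All were among the 38 splicing genes with a mean log2 level of at least 8, of which they are 21.1%. Hnrnpm changed by -3.03 with Trim21 mRNA and by -0.64 without it, an interaction of -2.40 ± 0.26 (limma adjusted p = 0.00677). Sf3b5 changed by -2.51 and -0.15, an interaction of -2.36 ± 0.47 (limma adjusted p = 0.0431), with antibody-alone pools at 8.70 and 9.78. Srsf2, at 10.00 and 9.59 after combined injection and 11.22 and 10.93 with Trim21 mRNA, changed by -1.28 with Trim21 mRNA and by 0.38 without it. Hnrnpu, at 8.08 and 7.74 after combined injection and 10.02 and 9.74 with Trim21 mRNA, changed by -1.97 and by -0.48 without it. The other 4 had negative values in both settings, with Hnrnpa2b1 at -2.44 with Trim21 mRNA and -0.77 without it, Snrpa1 at -2.77 and -1.12, Srsf6 at -3.0 and -1.58 and Srsf5 at -1.92 and -0.59. Of these, Snrpa1 and Srsf6 were also called without Trim21 mRNA. The median interaction over the 46 genes was -0.66, against -0.005 over all genes and -0.40 over genes with a mean log2 level of at least 8.

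**Figure D4:**
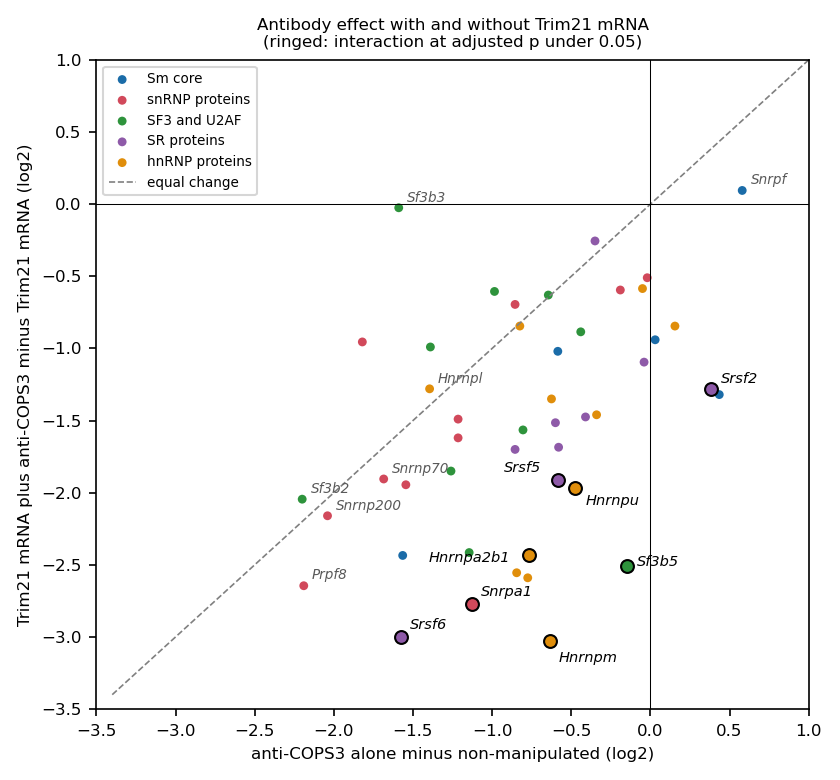
Antibody effect in log2 units with Trim21 mRNA (y axis) against the effect without it (x axis) for each splicing gene, coloured by group; the dashed line marks equal change. The 8 ringed genes have an interaction at an adjusted p under 0.05 and lie below the line, while Prpf8, Snrnp200, Sf3b2 and Snrnp70 lie near it.

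Some genes that fell in both settings were not called for such a difference. The interaction was -0.46 for Prpf8 (95% interval -1.12 to 0.21), -0.22 for Snrnp70 (-0.78 to 0.34), -0.12 for Snrnp200 (-1.42 to 1.18), 0.16 for Sf3b2 (-1.19 to 1.5) and 0.12 for Hnrnpl (-0.41 to 0.64). The intervals for Snrnp200 and Sf3b2 are wide, and these values do not show that the effects were equal. None of the 8 interactions was called without either non-manipulated replicate or Trim21 mRNA replicate 1. Fewer splicing genes were called without Trim21 mRNA replicate 2 or either combined-injection replicate. Without antibody-alone replicate 1 the median interaction of the 46 was -0.965, against 0.085 over all genes. Without antibody-alone replicate 2 it was -0.603, against -0.09 over all genes. Values above 0 in that fit included Sf3b3 (2.81), Prpf6 (2.13), U2af2 (1.41), Sf3b2 (0.84) and Sf3a2 (0.79).

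**Figure D5:**
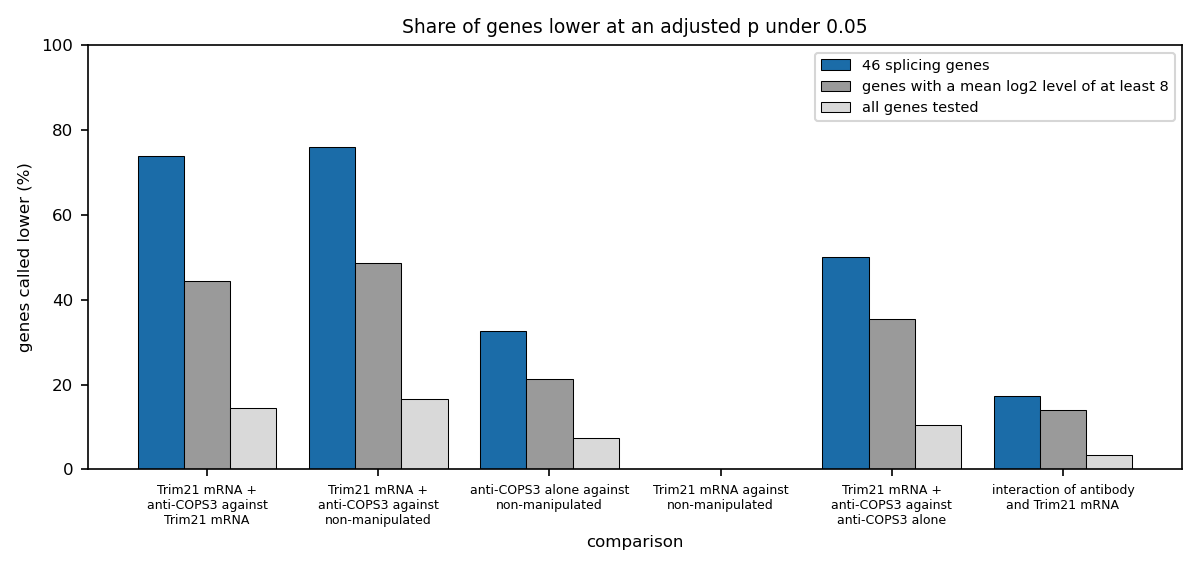
Percent of genes called lower (y axis) in each of the 6 comparisons (x axis), for the 46 splicing genes, genes with a mean log2 level of at least 8 and all genes tested. The splicing genes reach 73.9% for combined injection against Trim21 mRNA, and 0 for Trim21 mRNA against non-manipulated embryos.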

How the data were processed

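The authors deposited log2 levels per transcript cluster for 8 Affymetrix arrays, labelled with a GeneChip WT Pico kit per the labels; Affymetrix Expression Console was used, per the submitters' processing notes, and the summarisation method is not given in the sources used here. In 1 array a single cell holds a large whole number that is not a log2 level, and its cluster was dropped, which left 65955 of 65956. Of these, 31257 named 1 gene, and the brightest cluster per gene gave 30700 genes. No further normalization or filter was applied to the main values.

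All 6 comparisons came from 1 limma 3.58.1 fit (R 4.3.3, lmFit and eBayes, two-sided) of 4 group means to 8 arrays, with 4 residual and 6.83 total degrees of freedom, tested on simulated data. The number of arrays limits the precision (median standard error 0.219). Benjamini-Hochberg adjustment ran over all genes, with 0.05 as the threshold of a call. The members, related lists and markers were chosen with earlier results of these data known. Values in every pool are given, per group of splicing genes, for the 2 genes with the smallest p and the 1 with the largest p for combined injection against Trim21 mRNA, for genes called higher and, in each related list, changes are given for the 2 smallest p and any higher call; other genes were named after their values were seen. Pools with the same replicate number did not deviate together (correlations from -0.191 to 0.143), so no block was used. Alternatives were quantile normalization, median centring, cyclic loess, a minimum mean level, the mean of a gene's clusters, clusters on the gene's own chromosome, a trended prior, array weights, a 2-fold threshold, genes at the ceiling left out, the replicate block, fits of only the groups compared and each array left out, where a lone array was assumed to vary like the other groups. Protein sequences were not used here.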

Additional observations from a re-analysis of the deposited data

Results flagged for a closer look

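The antibody effect differed with and without Trim21 mRNA for 8 splicing genes, by the interaction test in limma. They are 17.4% of the 46, against 3.46% of all genes and 14.1% of genes with a mean log2 level of at least 8 called lower. Of the 38 splicing genes of that level 21.1% were called lower. The interaction was -2.40 for Hnrnpm, -2.36 for Sf3b5, -1.67 for Hnrnpa2b1, -1.66 for Srsf2, -1.65 for Snrpa1, -1.50 for Hnrnpu, -1.43 for Srsf6 and -1.33 for Srsf5. Of these, Hnrnpm was called in 16 of 19 other settings, Hnrnpa2b1 in 13, Snrpa1 in 12, Hnrnpu, Sf3b5 and Srsf2 in 9 each and Srsf5 and Srsf6 in 7 each. Each stayed negative in all 19 settings.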

How the results depend on the processing

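Of the splicing genes called, 19 of 34 (combined injection against Trim21 mRNA), 23 of 35 (against non-manipulated embryos), 7 of 24 (against antibody alone), 0 of 15 (antibody alone) and 0 of 8 (interaction) were called in every other setting run. In the same order, medians after quantile normalization were -0.806, -1.041, -0.548, -0.489 and -0.35. After median centring they were -1.817, -2.122 and -1.062 for combined injection against Trim21 mRNA, against non-manipulated embryos and for antibody alone, and after cyclic loess -0.88, -1.11, -0.607 and -0.353 for combined injection against Trim21 mRNA, non-manipulated embryos and antibody alone and for the interaction. Interaction calls numbered 4 (quantile), 3 (centring), 2 (loess), 3 (trended prior), 4 (array weights) and 5 (replicate block). Over all genes the shares called were 4.08%, 2.74%, 3.63%, 2.86%, 3.49% and 2.81%. Array weights gave 8 calls for antibody alone, 7 for Trim21 mRNA and 11 for combined injection against antibody alone. Of all genes 3.83%, 12.2% and 6.52% were called there. Fits of only the groups compared gave 0, 6 and 7 calls, against 0%, 8.21% and 4.59% of all genes. For combined injection against non-manipulated embryos, Hnrnpl turned to 0.035 and Hnrnpk to 0.604 (quantile), and Hnrnpk was then called higher. Leaving out 1 array gave 21 to 42, 23 to 41, 13 to 33, 0 to 34, 0 to 22 and, for Trim21 mRNA, 0 to 0 calls, with medians of -1.563 to -1.425, -1.78 to -1.522, -1.115 to -0.653, -0.997 to -0.432, -0.965 to -0.525 and -0.22 to -0.13. With the replicate block, which the numbers do not support as pairs, 31, 33, 19, 11 and 5 genes were called and 0 for Trim21 mRNA. Of all genes 19.7%, 26.2%, 12.4%, 7.53%, 2.81% and 0% were called with the block. Clusters on the gene's own chromosome, chosen after seeing the data, gave 32, 34, 23, 15 and 8 among 45 genes, without Hnrnpa3. Of all genes 23.2%, 31.8%, 14.8%, 10% and 4.06% were called in that setting. Over all genes, 4448 lower and 2677 higher calls (combined injection against Trim21 mRNA) became 5365 and 876 after centring. The cause of these shifts was not tested.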
